A study of Bos grunniens and Bos grunniens x Bos taurus with 2 samples.

Results

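BMX-positive endothelial cells are the cells of blood vessel walls in which at least 1 transcript of *BMX* was counted. *BMX* encodes a cytoplasmic tyrosine kinase of the TEC family. In mouse tissue its promoter is known for activity in the endothelium of arteries and in the endocardium, and little in veins and capillaries. Endothelial cells of arteries, capillaries and veins share genes such as *PECAM1* and *CDH5*, which encode adhesion molecules of the contacts between neighbouring cells, but differ in others. Arterial endothelium is known for Notch signalling through the ligands *JAG1*, *JAG2* and *DLL4*, for the gap junction proteins *GJA4* and *GJA5*, and for proteins that anchor it to elastic fibres. In the testis, blood arrives through a long coiled artery and spreads into capillaries between the seminiferous tubules.

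Testis tissue of 1 sexually mature yak (*Bos grunniens*) and of 1 cattle-yak, the hybrid of cattle and yak, was dissociated with enzymes, and the cells of each animal were captured in droplets as 1 library. The yak tissue had been frozen and thawed before the enzymes were added, according to the study's methods, and the cattle-yak, also taken after sexual maturity, is not described there. No treatment or genetic change is given for either animal. Transcripts were counted as unique molecular identifiers (UMIs) on genes of the yak genome, also for the hybrid, and the yak library held 60816600 UMIs in 11991 cells and the cattle-yak library 43774841 UMIs in 8930 cells. With 1 library per group, there is no replicate check and no test, every interval below is a 95% interval for counting error only, and a comparison of the libraries compares these libraries and not yak with cattle-yak.

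The cells were chosen by their own counts. A cell belonged to the set if under 30% of its UMIs were mitochondrial, if it held at least 3 UMIs of *CDH5*, *TIE1*, *KDR*, *EMCN*, *TEK* and *PECAM1* together and at least 1 UMI of *BMX*, and if it held at most 1 UMI of *MMRN1*, a gene of lymphatic endothelium, and at most 1 of the pericyte genes *KCNJ8*, *ABCC9* and *HIGD1B*. Cells that the study typed as germ cells were left out. This gave 179 cells of the yak and 118 of the cattle-yak, 297 of 20921 cells in all. Cells that met every limit but held no *BMX* UMI served for comparison and are called BMX-negative below, 946 in the yak and 711 in the cattle-yak. The whole set is therefore defined by measured values, and every difference between BMX-positive and BMX-negative cells is a description of cells picked for that gene. No barcode of a BMX-positive cell occurred in both libraries, whereas 24 barcodes did among all cells.

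BMX-positive cells were the more deeply counted ones. The median was 7776 UMIs per cell in the yak, against 4602.5 in BMX-negative cells, and 9213 against 5175 in the cattle-yak. The median mitochondrial share differed little, at 11.2% and 11.4% in the yak and 13.2% and 15.3% in the cattle-yak. Most members sat well inside the limits on endothelial genes, with medians of 25 and 32 UMIs of the 6 genes, against 10 in the BMX-negative cells of each library. At the edges of the rule, 65 of the yak and 52 of the cattle-yak members held exactly 1 *BMX* UMI. Exactly 3 UMIs of the 6 genes were found in 5 and 2 members, and 2 further cells in each library had 2 such UMIs and met the other limits. The limit on pericyte genes had more weight, since it kept out 55 yak and 18 cattle-yak cells that met the rest, and that on *MMRN1* kept out 11 and 0.

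Of the 6 endothelial genes of the rule, all but *TIE1* (24.6% and 28.0%) were counted in most members, which the rule itself fixes in part, and they did not all move one way. Levels are given as UMIs of a gene per 1000000 UMIs of the summed cells (CPM). *PECAM1* reached 1823 CPM (interval 1762 to 1887) in yak members, with 699 CPM (interval 679 to 719) in BMX-negative cells. In the cattle-yak it reached 1968 CPM (interval 1890 to 2049), with 567 CPM (interval 546 to 589) in BMX-negative cells. It was counted in 98.9% and 99.2% of members. *CDH5* was counted in 84.9% and 87.3% of members. *TEK*, the receptor of angiopoietins, stood at 189 and 215 CPM in members and 89.1 and 116 CPM in BMX-negative cells. *EMCN*, the mucin endomucin, went the other way, with 211 and 268 CPM in members against 407 and 496 CPM, as did the VEGF receptor *KDR*, with 205 and 383 CPM against 356 and 486 CPM. These 6 genes chose the cells and cannot test the label. Of the endothelial markers outside the rule, *PTPRB* and *CLDN5* were counted in 92.7% and 69.8% of yak members and in 92.4% and 71.2% of cattle-yak members, whereas *VWF* was counted in 40.8% and 19.5%.

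Most *BMX* UMIs lay in these cells. Of the *BMX* UMIs in each library, 486 of 707 in the yak (68.7%) and 264 of 313 in the cattle-yak (84.3%) were in members. The level in members was 269 CPM (246 to 294) and 218 CPM (193 to 246), a level that the demand for 1 UMI sets in part. BMX-positive cells made up 15.9% (13.8 to 18.2) of blood endothelial cells in the yak and 14.2% (11.9 to 16.8) in the cattle-yak. These intervals overlap. With every cell reduced to 2000 UMIs, the expected share was 8.79% of 991 yak cells, with 134 shallower cells left out, and 6.42% of 786 cattle-yak cells, with 43 left out.

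T cells, connective tissue cells, macrophages and lymphatic endothelial cells held *BMX* less often. The T cells, connective tissue cells and macrophages below were required to hold no UMI of the 6 endothelial genes, which also removes cells that took up endothelial RNA, so that their low shares are set in part by that choice. Among T cells, chosen by at least 2 UMIs of *CD3D* and *CD3G*, chains of the T cell receptor complex, and no UMI of the 6 endothelial genes, 4 of 1187 in the yak (0.337%, 0.0919 to 0.861, median 2174 UMIs) and 1 of 258 in the cattle-yak (0.388%, 0.00981 to 2.14, median 2702 UMIs) held a *BMX* UMI. At 2000 UMIs per cell the T cell shares were 0.247% and 0.438%. Among cells with at least 2 UMIs of *PDGFRA*, a gene of connective tissue, and none of the 6 genes, the counts were 1 of 692 and 0 of 740, at medians of 4480.5 and 3166.5 UMIs. Among macrophages they were 0 of 106 and 0 of 61, at medians of 3271.5 and 3434 UMIs, which allows a share of up to 3.42% and 5.87% by the exact interval. Endothelial cells with at least 2 *MMRN1* UMIs held *BMX* in 12 of 682 yak cells (1.76%, 0.912 to 3.05), at a median depth of 4678.5 UMIs close to that of BMX-negative cells, and in 0 of 198 cattle-yak cells, at a median of 4412.5 UMIs. In both libraries *BMX* was thus counted less often in lymphatic than in blood endothelium, although the rule itself uses *MMRN1*.

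**Figure D1:**
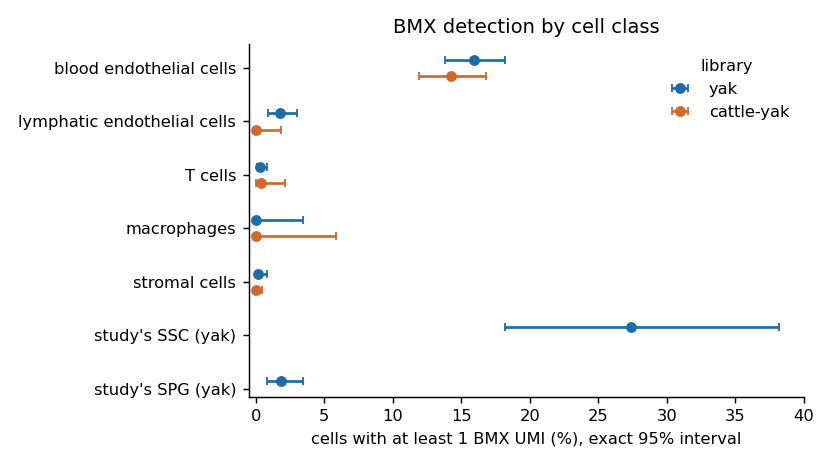
Share of cells with at least 1 BMX UMI (x axis, percent, exact binomial 95% intervals) for cell classes (rows) of the yak (blue) and the cattle-yak (orange). Blood endothelial cells lie at 15.9% and 14.2%, T cells at 0.337% and 0.388%, and the cells that the study typed as spermatogonial stem cells at 27.4%. The cells typed as spermatogonial stem cells also held the endothelial gene PECAM1, at 1182 CPM.

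The study's own germ cell types touch this set. The study names *BMX* a marker of spermatogonial stem cells (SSCs) and reports its protein in SSCs by immunohistochemistry. Of the 84 yak cells that it typed as SSCs, 23 held *BMX* (27.4%, 18.2 to 38.2), at a median of 1605 UMIs per cell. These 84 cells also held *PECAM1* at 1182 CPM and the summed genes shared by blood endothelium at 2084 CPM. Yak cells typed as spermatogonia held 160 and 674 CPM, and BMX-negative endothelial cells of the yak 699 and 3692 CPM. Whether the cells typed as SSCs include endothelial cells or endothelial RNA was not tested. In the germ cell table, 10 cells met every other limit of the endothelial rule and were left out.

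Against BMX-negative cells, the BMX-positive cells of both libraries carried more transcripts of arterial genes and fewer of the summed venous and sprouting genes and of the capillary gene *CA4*. Levels of a gene were compared as log2 ratios of CPM with 1 CPM added to each side, so that ratios of low genes are understated. A gene was measured when it held at least 50 UMIs over both sides and a UMI in at least 10% of the cells of either side, and it was called at a ratio of at least 2-fold. In the yak 290 of 6555 measured genes were higher (4.42%) and 193 lower (2.94%), and in the cattle-yak 370 of 6579 were higher (5.62%) and 199 lower (3.02%). Of the 6115 genes measured in both libraries, 168 were higher in both (2.75%) and 110 lower in both (1.8%), and 0 were called in opposite directions. These shares are the background of every list count below. The genes higher in both made up 57.9% of the yak genes and 45.4% of the cattle-yak genes called higher, and the genes lower in both 57.0% and 55.3%. The median log2 ratio of all measured genes was 0.06 and 0.14. With every cell reduced to 2000 UMIs, which leaves fewer genes with enough UMIs, 179 genes were higher in the yak and 236 in the cattle-yak, and 116 were lower in the yak. The counts of lower genes also depend on the demand for 10% of cells. Without it, 632 genes were lower in the yak and 388 in the cattle-yak.

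**Figure D2:**
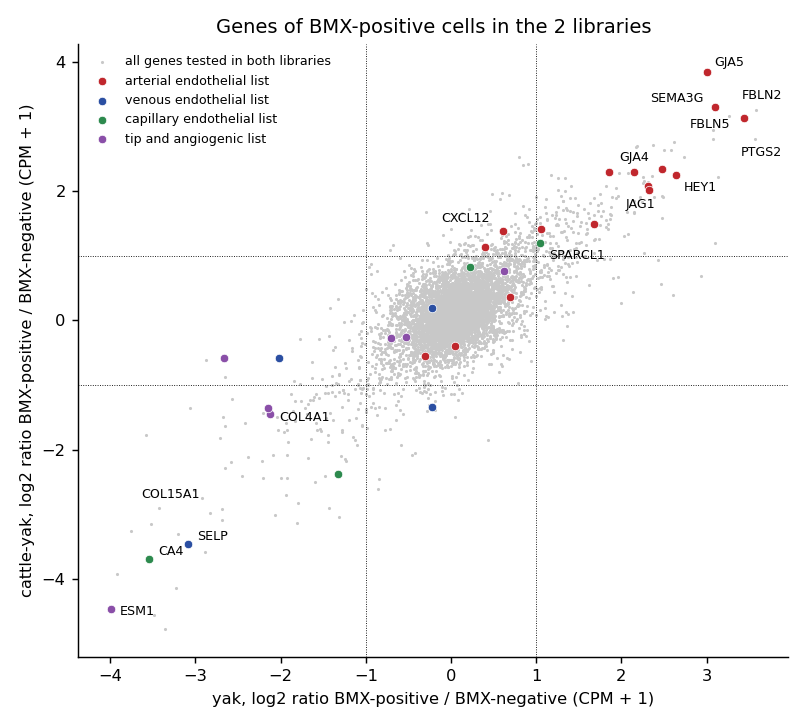
Log2 ratio of CPM + 1 between BMX-positive and BMX-negative cells in the yak (x axis) and the cattle-yak (y axis) for the 6115 genes measured in both libraries (grey), with 4 gene lists in colour and dotted lines at 2-fold. Arterial genes such as GJA5, SEMA3G and FBLN5 lie at the upper right, and ESM1, CA4 and SELP at the lower left.

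The arterial list held 26 genes, of which 23 had a row with their symbol and 17 were measured in each library. In the yak 12 of the 17 were higher and 0 lower, and in the cattle-yak 14 of 17 were higher and 0 lower. The median log2 ratio of the measured members was 2.14 and 2.01. A total of 11 were higher in both libraries, *EFNB2*, *FBLN5*, *GJA4*, *GJA5*, *HEY1*, *IGFBP3*, *JAG1*, *JAG2*, *LTBP4*, *MECOM* and *SEMA3G*. Summed, the list reached 5895 CPM (interval 5783 to 6008) in yak members, with 2221 CPM (interval 2185 to 2257) in BMX-negative cells. In the cattle-yak it reached 7690 CPM (interval 7535 to 7848), with 2160 CPM (interval 2119 to 2202) in BMX-negative cells. The ratio was 1.41 (1.37 to 1.44) and 1.83 (1.79 to 1.87) on the log2 scale. The sum is not specific to endothelium, since cells with *PDGFRA* held it at 2947 and 3295 CPM. *CXCL12*, the chemokine ligand of *CXCR4*, gave 27.7% and 24.1% of the sum in members, and without it the ratios were 1.89 and 2.01.

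Both connexins of arterial endothelium, which join neighbouring cells through gap junctions, were among the separated genes. *GJA5* (connexin 40) stood at 57.0 CPM in yak members and 6.25 CPM in BMX-negative cells, and at 55.3 CPM and 2.92 CPM in the cattle-yak, log2 ratios of 3.00 and 3.84. It was counted in 35.8% of yak members and 3.91% of BMX-negative cells. *GJA4* (connexin 37) stood at 781 and 176 CPM in the yak and at 1609 and 325 CPM in the cattle-yak, ratios of 2.14 and 2.30, and was counted in 83.2% and 96.6% of members. *GJA1* (connexin 43) was lower instead, at 14.4 against 36.3 CPM and 12.4 against 32.8 CPM, with ratios of -1.28 and -1.34. The cattle-yak value of *GJA1* was -0.96 with cells reduced to 2000 UMIs and then within 2-fold.

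The Notch ligands *JAG1* and *JAG2* and the target *HEY1* were higher in the BMX-positive cells, while most other measured parts of the pathway lay within 2-fold. *JAG1* stood at 478 and 95.8 CPM in the yak and 638 and 150.4 CPM in the cattle-yak, with log2 ratios of 2.31 and 2.08. *JAG2* stood at 781 and 214 CPM in the yak and 910.1 and 184 CPM in the cattle-yak, with ratios of 1.86 and 2.30. *HEY1*, a repressor that Notch switches on, had ratios of 2.64 and 2.24, with 64.7 and 90.8 CPM in members. Of the receptors, *NOTCH1* had ratios of 0.69 and 0.36 and *NOTCH4* of 0.39 and 1.14, so that only the cattle-yak value of *NOTCH4* passed 2-fold. *HES1*, another target, lay at -0.06 and -0.54, and the glycosyltransferase *LFNG*, which modifies Notch receptors, at -0.84 and -0.97. Of the 21 genes of the Notch list, 10 were measured in the yak with 3 higher and 0 lower, and 12 in the cattle-yak with 4 higher and 1 lower. The summed ratio was 0.88 (0.82 to 0.94) and 0.97 (0.90 to 1.04). No row carried the symbol *DLL4*, and the ligand *DLL1* lay at -0.42 and -0.50.

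The membrane ligand *EFNB2*, the classic arterial partner of the venous receptor *EPHB4*, stood at 181 and 55.9 CPM in the yak and 245 and 86.9 CPM in the cattle-yak, ratios of 1.68 and 1.49. *SEMA3G*, a secreted semaphorin of arterial endothelium, was counted in 36.9% of yak members and 3.49% of BMX-negative cells, and in 35.6% and 2.39% of those of the cattle-yak. Its levels were 52.0 and 47.9 CPM in members and its ratios 3.09 and 3.30. *VEGFC*, a growth factor best known for lymphatic vessels, was counted in 20.1% of yak members and 1.48% of BMX-negative cells and in 21.2% and 0.985% of those of the cattle-yak, with ratios of 3.20 and 3.18. It reached the minimum of 50 UMIs in the yak only. The ligand *CXCL12* itself had ratios of 0.61 and 1.38, and its receptor *CXCR4* of -0.30 and -0.55. The netrin receptor *UNC5B* was measured in the cattle-yak only, where its ratio was 1.67.

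Matrix genes went both ways. Those higher in both libraries were *FBLN2*, *FBLN5*, *FN1*, *LTBP1*, *LTBP4* and *SPARCL1*, and those lower in both *COL15A1*, *COL4A1*, *COL4A2*, *LAMA4*, *LAMB1* and *VWF*. *FBLN5*, a fibulin needed to assemble elastic fibres, stood at 79.1 CPM in yak members and 6.39 CPM in BMX-negative cells, and at 70.2 and 7.10 CPM in the cattle-yak, ratios of 3.44 and 3.14. *FBLN2*, another fibulin, reached 451 CPM (interval 421 to 483) in yak members, with 36.7 CPM (interval 32.3 to 41.6) in BMX-negative cells. In the cattle-yak the levels were 223 CPM (interval 197 to 251) and 22.6 CPM (interval 18.5 to 27.2). It was counted in 74.3% and 53.4% of members. Its ratios were 3.58 and 3.25. *LTBP4* and *LTBP1*, which hold latent TGF-beta in the matrix, had ratios of 2.33 and 2.01 and of 2.63 and 2.25. Fibronectin (*FN1*) had ratios of 1.75 and 1.48. Elastin itself (*ELN*) was counted in 15.1% and 12.7% of members and was measured in the yak only, with a ratio of 2.23.

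The collagen IV chains *COL4A1* and *COL4A2*, the main network of the vessel's basement membrane, were lower. *COL4A1* stood at 455 against 1987 CPM in the yak and at 479.8 against 1307 CPM in the cattle-yak, ratios of -2.12 and -1.44, and *COL4A2* had ratios of -2.15 and -1.35. *COL15A1* stood at 23.2 against 259.9 CPM and at 19.8 against 155 CPM, ratios of -3.43 and -2.91. The laminin chains *LAMA4* and *LAMB1* had ratios of -1.28 and -1.69 and of -1.39 and -1.55, whereas *LAMB2* lay at 0.80 and 1.28 and *LAMA5* at 0.13 and 0.63. Of the 31 genes of the matrix list, 21 were measured in both libraries, 6 were higher in both and 6 lower in both, and its summed ratio was near 0, at -0.18 (-0.21 to -0.16) and -0.16 (-0.19 to -0.13).

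Of 24 genes that set vessel tone and haemostasis, 14 were measured in each library, of which 7 were higher in the yak and 5 in the cattle-yak and 1 was lower in each, beside 4.42% and 5.62% of all measured genes higher and 2.94% and 3.02% lower. *NOS3*, the endothelial nitric oxide synthase, stood at 73.0 and 26.5 CPM in the yak and 83.4 and 25.5 CPM in the cattle-yak, ratios of 1.43 and 1.67. *ECE1*, which cleaves the precursor of endothelin, had ratios of 1.25 and 1.48. *PLAT*, the tissue plasminogen activator, stood at 362 and 120.3 CPM in the yak and at 323 and 113 CPM in the cattle-yak. *PROCR*, the receptor of protein C, was counted in 67.6% of yak members against 11.3% of BMX-negative cells and in 55.1% against 11.3% in the cattle-yak, with ratios of 2.80 and 2.03. *PTGS2*, the inducible cyclooxygenase, had ratios of 3.57 and 2.80 but was counted in only 14.53% and 10.2% of members. The prostacyclin synthase *PTGIS* and the coagulation inhibitor *TFPI* passed 2-fold in the yak only, with ratios of 2.11 and 2.46 there and of 1.70, with too few UMIs to count as measured, and 0.56 in the cattle-yak. *VWF*, the carrier of factor VIII and a marker that the study used for endothelial cells, was lower. In the yak its level was 79.7 CPM (interval 67.2 to 93.8) in members, with 374 CPM (interval 359.5 to 389) in BMX-negative cells. In the cattle-yak the levels were 44.6 CPM (interval 33.5 to 58.2) and 205 CPM (interval 192 to 218), ratios of -2.22 and -2.17.

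**Figure D3:**
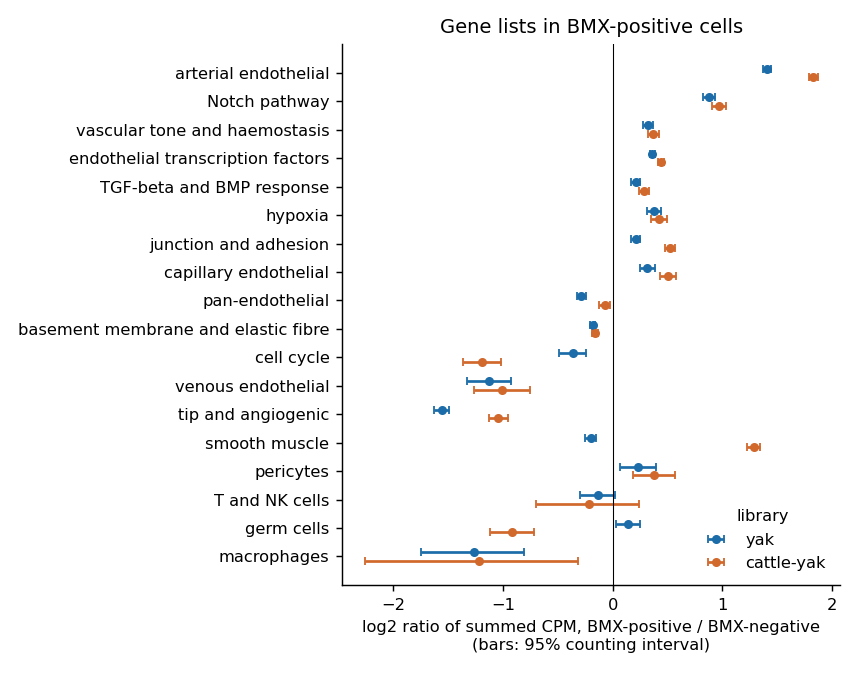
Log2 ratio of the summed CPM of each gene list (rows) between BMX-positive and BMX-negative cells (x axis, bars are exact conditional 95% intervals for counting error) in the yak (blue) and the cattle-yak (orange). The arterial list lies at 1.41 and 1.83 and the tip and angiogenic list at -1.56 and -1.04, while the smooth muscle list differs between the libraries, at -0.20 and 1.29.

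Among transcription factors, *MECOM*, a zinc finger factor of arterial endothelium, stood at 391 and 187 CPM in the yak and 424 and 158 CPM in the cattle-yak, ratios of 1.06 and 1.42. The yak value was 0.91 with at least 5 UMIs of the 6 genes and 0.98 with every cell weighted equally, and thus no longer past 2-fold. The shear-stress factors *KLF2* and *KLF4* lay within 2-fold, with ratios of 0.59 and 0.56 and of 0.66 and 0.94. The cattle-yak value of *KLF4* passed 2-fold under some settings. It was 1.02 with at least 2 *BMX* UMIs, 1.06 with cells weighted equally and 1.17 with cells reduced to 2000 UMIs. *PRDM16* was counted in 12.8% and 19.5% of members and in under 1% of BMX-negative cells (0.529% and 0.985%), with ratios of 3.03 and 3.18, but its UMIs did not reach 50 in either library. *GATA6* had ratios of 2.09 and 2.44 and was measured in the yak only. *ERG* and *FLI1*, ETS factors common to all endothelium, lay between -0.47 and 0.11. Of 40 factors listed, 26 were measured in both libraries and 2 were higher in both, *HEY1* and *MECOM*, and 0 lower, beside 2.75% and 1.8% of all genes.

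TGF-beta and BMP genes went both ways. *TGFB2*, a ligand, had ratios of 1.10 and 1.76, and *SMAD6*, an inhibitor of BMP signalling, of 1.48 and 1.66. The yak ratio of *TGFB2* was 0.76 with every cell weighted equally. It was 0.96 without cells above the mean plus 2 SD of depth and 0.93 with 5 CPM added. The co-receptor *TGFBR3* was lower, with ratios of -1.84 and -1.24, and *ACVRL1*, the endothelial BMP9 receptor, lay at 0.05 and -0.40. *BMP2*, which the list did not hold, was among the 20 genes most separated in both libraries, at 75.3 against 10.4 CPM and 76.8 against 12.5 CPM, with ratios of 2.74 and 2.52. Of 21 listed genes, 16 were measured in both, of which 3 were higher (*LTBP4*, *SMAD6*, *TGFB2*) and 1 lower, beside 2.75% and 1.8% of all genes measured in both.

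The other genes most separated upward in both libraries, ordered by the ratio nearer to 0, were of mixed function. *EGFL8*, a secreted protein with EGF-like repeats, had ratios of 3.08 and 2.94, and alkaline phosphatase *ALPL* of 3.07 and 2.81. *S100A4*, a small calcium-binding protein, was counted in 94.97% of yak members and 32.8% of BMX-negative cells, with 1589 against 257 CPM there and 1061 against 157 CPM in the cattle-yak, and had ratios of 2.62 and 2.75. *STC1*, the hormone stanniocalcin, had ratios of 2.58 and 2.64, *IGFBP3*, a carrier of insulin-like growth factors, of 2.48 and 2.34, and the nuclear factor *TOX2* of 2.50 and 2.63. The transporter *ATP13A3* had ratios of 2.38 and 2.72 and the phospholipase *PLCG2*, which TEC-family kinases are known to activate in blood cells, of 2.26 and 2.22. *PIR* had ratios of 2.19 and 2.69, but it neighbours *BMX* in the human genome, so that shared or misassigned reads cannot be told apart from its own here. Of these 20 genes, 3 had no symbol in the feature table, among them ENSBGRG00000017097 with ratios of 3.26 and 3.16.

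Capillary genes went both ways. Of the 14 listed, 4 were measured in the yak, with 1 higher and 2 lower, and 6 in the cattle-yak, with 2 higher and 3 lower. *CA4*, the membrane carbonic anhydrase of capillaries, had 27.7 CPM (interval 20.5 to 36.5) in yak members, with 333 CPM (interval 319 to 347) in BMX-negative cells. In the cattle-yak the levels were 27.3 CPM (interval 18.8 to 38.3) and 362 CPM (interval 345.5 to 379.8). It was counted in 7.26% against 46.6% of yak cells and in 4.24% against 44.7% of cattle-yak cells, and its ratios were -3.54 and -3.68. With at least 2 *BMX* UMIs they were -4.28 and -5.18. The cattle-yak ratio was -7.34 without cells with muscle, macrophage or stromal genes and -4.70 without cells above the mean plus 2 SD of depth. *RGCC*, a cell cycle regulator, had ratios of -1.33 and -2.38 (in the cattle-yak -0.42 with cells reduced to 2000 UMIs and -4.74 with at least 2 *BMX* UMIs), and *MFSD2A*, a lipid carrier of barrier capillaries, of -1.22 with too few UMIs to count as measured and -3.65. *CD36*, a fatty acid carrier, was measured in the cattle-yak only, with a ratio of 1.18, and *CAV1*, the coat protein of caveolae, lay at 0.22 and 0.83. *SPARCL1* was higher, with ratios of 1.05 and 1.20, which were 0.80 and 0.92 with cells reduced to 2000 UMIs. They were 0.74 and 0.97 with cells weighted equally and 0.89 and 0.87 without cells above the mean plus 2 SD of depth. In the yak *SPARCL1* also fell to 0.98 with at least 5 UMIs of the 6 genes and to 0.9997 without cells with muscle, macrophage or stromal genes. It gave 79.4% and 87.3% of the capillary sum, so that the list's summed ratio was above 0, at 0.32 (0.25 to 0.38) and 0.51 (0.43 to 0.58), and fell to -1.03 and -1.36 without it. The median of the measured members was below 0, at -0.56 and -0.77.

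*SELP*, the P-selectin of venules, stood at 4.43 against 45.1 CPM in the yak and 3.30 against 46.2 CPM in the cattle-yak, ratios of -3.09 and -3.45. *ACKR1*, the chemokine carrier of venules, had 2.21 against 44.3 CPM and 0.826 against 11.1 CPM, but fell short of 10% of cells on either side. The venous factor *NR2F2* lay at -0.22 and 0.18. The venous list had 5 and 4 measured members of 12, with 3 and 2 lower and 0 higher, and a summed ratio of -1.13 (-1.33 to -0.93) and -1.01 (-1.26 to -0.76). The yak value was -0.72 with cells reduced to 2000 UMIs and -0.70 with cells weighted equally. The cattle-yak value was -2.56 without cells holding the muscle, macrophage or stromal genes *ACTA2*, *MYH11*, *DES*, *C1QA*, *C1QB* or *PDGFRA*, -1.72 without cells above the mean plus 2 SD of depth and -1.69 with cells reduced to 2000 UMIs. *ESM1*, a secreted proteoglycan of sprouting tip cells, stood at 2.21 against 50.3 CPM in the yak and at 6.61 against 167 CPM in the cattle-yak, where its ratio was -4.47. It came first among the genes lower in both libraries, ordered by the ratio nearer to 0. *ANGPT2*, an antagonist of *TEK* signalling, had a ratio of -2.66 in the yak and lay within 2-fold in the cattle-yak, at -0.58. Of the 14 tip and angiogenic genes, 7 were measured in each library, of which 4 and 3 were lower and 0 higher, and the summed ratio was -1.56 (-1.63 to -1.49) and -1.04 (-1.13 to -0.96). Of the 15 genes most separated downward in both libraries, 13 had a symbol, among them *ESM1*, *CA4*, *SELP* and *COL15A1*. *PVALB*, the calcium buffer parvalbumin, had ratios of -3.92 and -3.92, and *FMO1*, a flavin monooxygenase, of -3.49 and -4.56. *TM4SF18*, a membrane protein, was counted in 12.8% against 55.3% of yak cells and in 5.08% against 63.0% of cattle-yak cells, with ratios of -3.36 and -4.77. The homeobox gene *LHX6* had ratios of -3.22 and -4.15. The phosphodiesterases *PDE7B* and *PDE2A*, which degrade cyclic nucleotides, had ratios of -3.20 and -3.30 and of -3.52 and -3.15. *ABI3*, *ITIH5* and *RFLNA* lay between -2.69 and -3.09.

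Genes shared by all blood endothelium did not move as a group. Of 20 listed genes, 13 were measured in both libraries, 1 was higher in both (*CLDN5*, the tight junction protein, ratios 1.29 and 1.36) and 3 were lower in both (*VWF*, *CD34* and the guidance receptor *ROBO4*, at -1.58 and -1.14). *CD34* stood at 39.3 against 82.5 CPM and 40.5 against 89.4 CPM, ratios of -1.05 and -1.12. It lay within 2-fold once BMX-negative cells were weighted to the members' depth, at -0.86 and -0.92. Without cells above the mean plus 2 SD of depth it lay at -0.91 and -0.86. The yak ratio was also -0.85 with cells weighted equally, -0.91 without cells with muscle, macrophage or stromal genes and -0.98 with 5 CPM added. *PTPRB*, the endothelial phosphatase that acts on *TEK*, lay at 0.29 and 0.63 and was counted in 92.7% and 92.4% of members. The summed ratio was -0.28 (-0.33 to -0.24) and -0.07 (-0.12 to -0.02). Of the same kinase family, *TEC* was counted in 15.1% and 10.2% of members and lay within 2-fold, with ratios of -0.07 and 0.08, and *BTK* and *TXK* had too few UMIs to be measured, at 0 to 0.826 CPM in members.

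The members differed among themselves with the number of *BMX* UMIs they held. Cells with 3 or more were deeper, with medians of 11117 and 12225 UMIs against 5555 and 6797 in cells with exactly 1. The values below are CPM, which does not undo this difference in the cells chosen. *BMX* and *PECAM1* are both genes of the rule, so the values below are a description only. *FBLN2* stood at 270 CPM in yak cells with 1 *BMX* UMI, 330 CPM with 2 and 621 CPM with 3 or more, and at 101 CPM, 277 CPM and 300.2 CPM in the cattle-yak. *IGFBP3* likewise stood at 249, 474 and 561 CPM in the yak and at 369, 646 and 782 CPM in the cattle-yak. *PTGS2* was near its BMX-negative level in cattle-yak cells with 1 *BMX* UMI, at 4.61 CPM against 4.59, and reached 64.8 CPM in those with 3 or more. The value of 4.61 CPM rests on 2 UMIs (interval 0.558 to 16.7). In the yak *PTGS2* stood at 10.5 CPM (interval 3.86 to 22.9) with 1 *BMX* UMI, against 2.68 CPM in BMX-negative cells. For *GJA4* the order held in the yak (578, 780 and 915 CPM) and not in the cattle-yak (1754, 1232 and 1728 CPM). The same was true of *JAG1*, *JAG2*, *PECAM1* and the summed arterial list. That sum stood at 4388, 5852 and 6902 CPM in the yak and at 7679, 6478 and 8523 CPM in the cattle-yak. *CA4* fell from 52.6 to 30.0 and 10.4 CPM in the yak and from 59.9 to 22.3 CPM and no UMI in the cattle-yak, whereas *COL4A1* hardly differed after the first *BMX* UMI, at 491, 439 and 438 CPM in the yak.

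**Figure D4:**
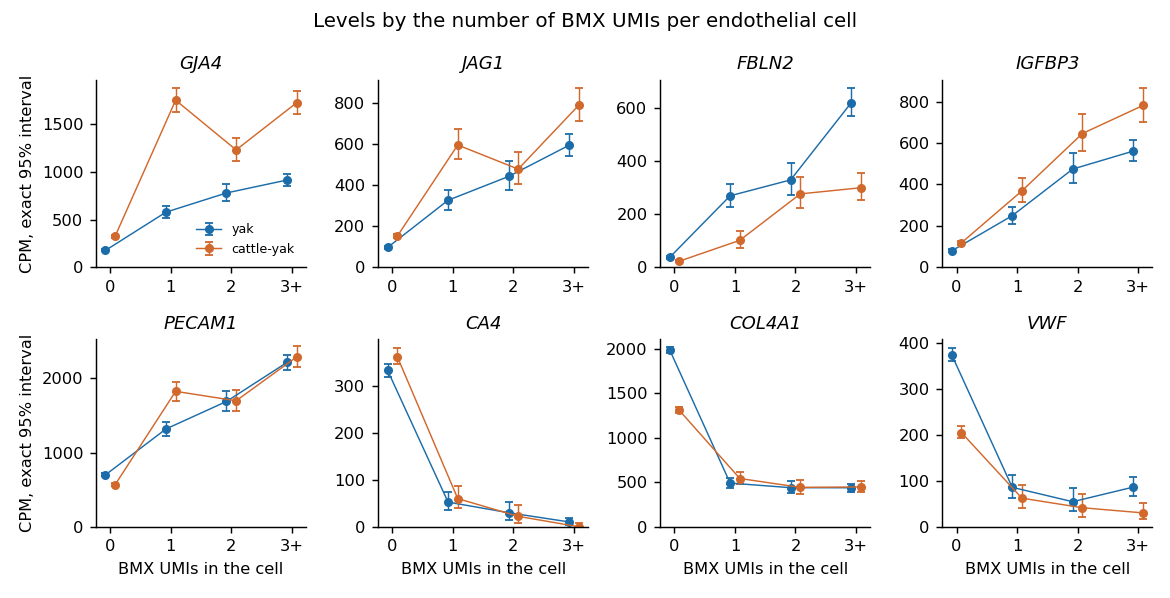
Level of 8 genes (CPM of summed counts, exact Poisson 95% intervals) in endothelial cells with 0, 1, 2 and 3 or more BMX UMIs (x axis) in the yak (blue) and the cattle-yak (orange), each panel with its own scale. JAG1, FBLN2, IGFBP3 and PECAM1 are higher and CA4, COL4A1 and VWF lower at 1 or more BMX UMIs than at 0 in both libraries.

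Single BMX-positive cells held more of the arterial genes than BMX-negative cells did. Whether these genes occurred together beyond their higher levels was not tested. With every cell reduced to 2000 UMIs, a yak member held a median of 6 of the 23 matched arterial genes and a BMX-negative cell a median of 2, and the medians were the same in the cattle-yak. At least 5 were detected in 70.0% of 170 yak members (62.5 to 76.8) and 11.9% of 821 BMX-negative cells (9.80 to 14.4), and in 83.8% of 117 cattle-yak members (75.8 to 89.9) and 13.8% of 669 BMX-negative cells (11.2 to 16.6). The same was seen in 1 of 728 yak T cells and 0 of 203 cattle-yak T cells. A UMI of *CA4*, *SELP*, *ESM1* or *ACKR1* was found in 3.53% of yak members and 5.13% of cattle-yak members, against 47.3% and 47.8% of BMX-negative cells. These 4 genes were among the lowest of their lists in the same cells, so this split restates their ratios and is no separate support. Other genes of those lists, such as *SPARCL1* and *NR2F2*, were not lower in both libraries. Among BMX-negative cells, 98 and 92 held at least 5 arterial genes. Cells in which *BMX* was missed and cells that lacked it cannot be told apart here.

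**Figure D5:**
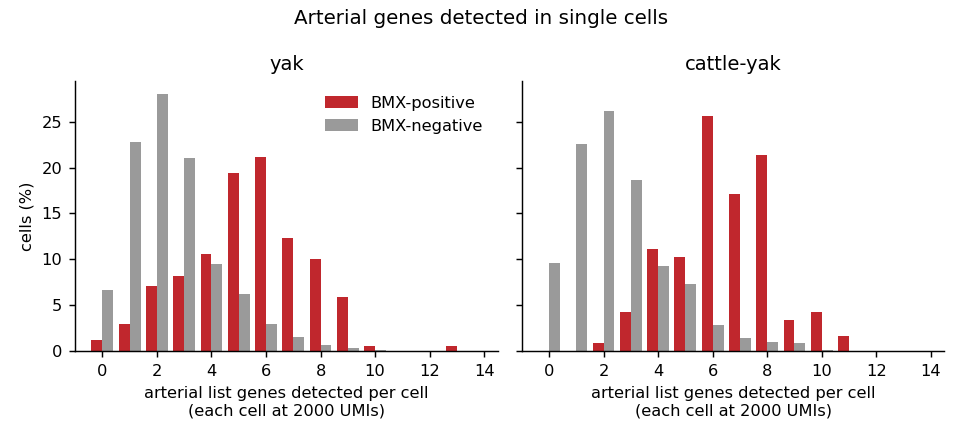
Number of arterial list genes detected per cell (x axis) after reducing each cell to 2000 UMIs, as a percentage of BMX-positive (red) and BMX-negative (grey) cells in the yak (left) and the cattle-yak (right). The medians are 6 and 2 genes in both libraries, with BMX-negative cells reaching 10.

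Clustering of the blood endothelial cells, made without the genes of the rule, placed most members together. In the yak, 1 of 10 clusters was arterial-like by 14 listed markers, with *EGFL8*, *TOX2*, *ATP13A3*, *HEY1* and *VEGFC* among its leading genes, and 104 of its 193 cells (53.9%, 46.6 to 61.1) were BMX-positive, 58.1% of all members. A small cluster of 34 cells led by *PLTP*, *PTGS2*, *SULF1* and *DKK2* was BMX-positive in 28 cells (82.4%, 65.5 to 93.2). It held 7 arterial genes among its enriched genes but none among its 10 leading ones and was given no name. In the cattle-yak, 1 of 8 clusters was arterial-like by 15 markers, and 87 of its 177 cells were BMX-positive (49.2%, 41.6 to 56.8), 73.7% of all members. Venous-like clusters held 3 BMX-positive cells of 180 in the yak and 3 of 94 in the cattle-yak. Tip and angiogenic-like clusters held 1 of 157 and 1 of 276 in the yak and 0 of 163 in the cattle-yak, and an unnamed cattle-yak cluster led by *CCL21*, *FST* and *MFSD2A* held 0 of 231.

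Some members carried genes of other cell types. A cluster led by the smooth muscle genes *ACTA2* and *MYH11* held 18 members of 38 cells in the yak and 20 of 49 in the cattle-yak, at medians of 10170.5 and 11272 UMIs per cell, and a cluster led by T cell genes held 15 members of 68 cells in the yak. Germ cell-like clusters held 5 members of 127 cells and 1 of 19 in the yak and 3 of 19 in the cattle-yak, and a stromal-like cluster held 4 of 54 in the cattle-yak. An unnamed yak cluster with 7 smooth muscle and 4 stromal genes enriched held 3 of 33. All other cells of these clusters were BMX-negative and stayed on the comparison side of the ratios as reported. At least 2 UMIs of *ACTA2* and *MYH11*, proteins of the contractile apparatus, were found in 22.9% of yak members and 21.6% of BMX-negative cells, and in 23.7% and 11.7% of those of the cattle-yak. The 10 cells richest in these UMIs held 66.8% and 72.7% of them among members. All 10 listed smooth muscle genes had UMIs in members. Summed, they stood at 2506 against 2880 CPM in the yak, where 8 were measured and 1 was higher (*ACTA2*, ratio 1.29), and at 3478 against 1426 CPM in the cattle-yak, where 9 were measured and 6 higher. *TAGLN* was the most abundant, at 1188 and 1177 CPM in members. Without the cells that held at least 2 UMIs of *ACTA2* and *MYH11* or any UMI of the macrophage genes *C1QA* and *C1QB*, of *PDGFRA* or of the muscle gene *DES*, the smooth muscle ratio was -1.54 and -0.64, and the arterial ratio was 1.49 and 1.95, so that the arterial ratio was as large without those cells. Pericyte genes left in the list after the rule, led by *MCAM*, had ratios of 0.23 (0.06 to 0.40) and 0.38 (0.18 to 0.57), which turned to -1.15 and -0.41 without those cells and to -0.52 and -0.57 without cells above the mean plus 2 SD of depth. Ratios of T and NK cell genes were -0.14 (-0.29 to 0.02) and -0.22 (-0.70 to 0.24), and those of macrophage genes -1.26 and -1.22, or 0.18 and -0.08 without those cells.

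Between the libraries, BMX-positive cells of the cattle-yak had 120 of 5731 measured genes at least 2-fold above the yak (2.09%) and 324 below (5.65%). Of these, 43 and 200 also passed 2-fold between the BMX-negative cells of the libraries. The counts were smaller, at 64 and 188, without the cells left out above for smooth muscle, macrophage or stromal genes, a step that keeps T cell-like and germ cell-like members, and at 60 and 126 without cells above the mean plus 2 SD of UMIs or genes. They were 33 and 51 with cells reduced to 2000 UMIs and 32 and 108 with at least 200 UMIs per gene, while at least 20 UMIs per gene gave 271 above. Of the 10 genes most below, 6 had no symbol, and the other 4 are described here. *CLGN*, a chaperone of spermatogenic cells, stood at 491 CPM in yak members and 3.30 CPM in cattle-yak members, *LCA5L* at 328 and 3.30 CPM, and *TSACC* at 279 and 4.96 CPM. *YBX2*, an RNA-binding protein of germ cells, stood at 201 CPM and at no UMI, where 3 counts would be 2.48 CPM. In BMX-negative cells these 4 genes stood at 440, 373, 374 and 179 CPM in the yak and at 15.7, 1.67, 5.85 and 1.88 CPM in the cattle-yak, and their UMIs came from 10.6% to 20.1% of yak members. The summed germ cell list stood at 507 CPM in yak members and 192 CPM in cattle-yak members. The part of free or adhering germ cell RNA in these differences was not tested, and no doublet caller was run.

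Of the arterial genes, *GJA4* was higher in the cattle-yak members, at 1609 against 781 CPM (a log2 ratio of 1.04), and *UNC5B* at 28.1 against 8.85 CPM (1.56). In BMX-negative cells *GJA4* was also higher in the cattle-yak, at 325 against 176 CPM. *SMAD6* had a ratio of 1.17 and the phosphatase *ALPL* of 1.70, which was 1.96 in BMX-negative cells. *FBLN2* was lower, at 223 against 451 CPM (-1.01, and -0.68 in BMX-negative cells), and the lipid transfer protein *PLTP* stood at 28.1 against 135 CPM (-2.23). *GJA5*, *SEMA3G*, *FBLN5*, *JAG1*, *JAG2* and *HEY1* lay within 2-fold, between -0.17 and 0.48. The adaptor *STAP2* and the semaphorin *SEMA4A* had ratios of 3.17 and 2.61, and 8 of the 10 genes most above in the cattle-yak had no symbol. Reads of the hybrid's cattle alleles were counted on yak genes, and their part in such differences was not tested.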

How the data were processed

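Single-cell libraries of 1 yak and 1 cattle-yak testis were read as the filtered matrices that the authors deposited. These hold UMI counts per gene and cell, made with Cell Ranger (version 5.0.0 per the file headers, 2.1.1 in the submitters' processing notes) on the yak genome (assembly BosGru3.0 by the study's methods), and are not normalised. The study's methods name a further Cell Ranger version and do not describe the cattle-yak library. Reads of both species fall on yak gene models, which can lower genes that differ between them.

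The members and the 31 gene lists were chosen with earlier results of these data known. Counts were summed over the cells of a library, and ratios took 1 CPM as pseudocount. A gene counted as measured with at least 50 UMIs over both sides and a UMI in at least 10% of cells of either side. Named were, among genes past 2-fold in both libraries and ordered by the ratio nearer to 0, the 20 highest and 15 lowest, then the 10 highest and lowest between the libraries, and list genes. Cells thinned to 2000 UMIs gave shares, for *BMX* as exact expectations. Intervals are exact at 95% (Poisson for CPM, Clopper-Pearson for shares, conditional for ratios of sums) and cover counting error only. Clusters were made with scanpy 1.11.5 (Leiden, resolution 0.5, 2000 variable genes, 20 components, 15 neighbours) without the genes of the rule, and were named from at least 3 enriched markers with 1 or more among the 10 leading genes. No doublet caller was run. An alternative left out cells with a UMI of *C1QA*, *C1QB*, *PDGFRA* or *DES* or at least 2 of *ACTA2* and *MYH11*. It also named *CD3E* and *CD2*, for which no row carried the symbol, and no germ cell gene, so that it kept cells with T cell and germ cell genes. Of the 26961 features, 15722 had a symbol. No column of per-sample values was left unused. Python 3.11.15, numpy 2.4.6, scipy 1.17.1, pandas 2.3.3 and matplotlib 3.10.9 were used, and scripts were tested on simulated data. No statistical test was made, since each group is 1 library.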

Additional observations from a re-analysis of the deposited data

How the results depend on the processing

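Every alternative that was chosen was run, and values are given as yak and cattle-yak. No paired analysis was possible because each group is 1 library. Single genes were rerun for a chosen set of named genes only, 134 ratios over both libraries. Of 1408 values of those past 2-fold as reported, whether or not they counted as measured, 1402 kept their sign and 1366 stayed past 2-fold. Most of that set was named for its large ratios, so these counts do not stand for all called genes. The arterial log2 ratio (1.41 and 1.83 as reported) stayed between 1.25 and 1.96. With a mitochondrial limit of 20% it was 1.75 in the cattle-yak, and 1.76 once totals excluded mitochondrial and rRNA features. With at least 5 UMIs of the 6 genes, the BMX-positive share was 19.2% in the yak, the arterial ratio 1.33 and 1.76, the capillary ratio 0.21 and 0.43 and the lymphatic ratio 0.073 in the cattle-yak. Without cells above 2 SD of depth, the share was 11.4% in the cattle-yak, the arterial ratio 1.37 in the yak, the capillary ratio 0.20 and 0.23, and 60 genes were above and 126 below between libraries. The cattle-yak ratios of the smooth muscle list, *MYH11* and *TAGLN* then turned to -0.16, -0.35 and -0.33. Without cells with muscle, macrophage or stromal genes, the arterial ratio was 1.49 and 1.95, the capillary ratio 0.16 and 0.15, and 64 and 188 genes differed between libraries. The macrophage ratio was then 0.18 in the yak, *ACTA2* -0.12 and -0.25, and in the cattle-yak the smooth muscle list -0.64, *MYH11* -0.66 and *TAGLN* -1.46, as that setting removes cells with these genes. With at least 2 *BMX* UMIs, the share was 10.1% and 7.96%, 316 genes were lower in the yak, the arterial ratio was 1.57 in the yak, and 177 genes were below between libraries. With cells weighted equally, the arterial ratio was 1.25 and 1.74 and the capillary ratio 0.18 and 0.36. Thinned to 2000 UMIs, 179 and 236 genes were higher and 116 lower in the yak, the arterial ratio was 1.25 and 1.79, the capillary ratio 0.089 and 0.36, 33 and 51 genes differed between libraries, and the share was 8.79% and 6.42%, or 5.10% and 3.47% at 1000 UMIs. With BMX-negative cells weighted to the members' depth, the arterial ratio was 1.56 and 1.96 and the capillary ratio 0.42 in the yak. A minimum of 20 UMIs gave 271 genes above between libraries. A minimum of 200 UMIs gave 152 and 160 higher genes, 126 lower genes in the cattle-yak, and 32 and 108 between libraries, since fewer genes were measured. With no limit on the share of cells, 632 and 388 genes were lower. Where no cause is named, the cause was not tested. Low genes are limited by depth, since 3 UMIs in members equal 1.66 and 2.48 CPM.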

Other observations

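Junction and adhesion genes had 20 members measured in both libraries, with *CLDN5*, *GJA4* and *GJA5* higher in both and *CD34*, *GJA1*, *SELP* and the collagen receptor chain *ITGA1* lower in both. *ITGA1* stood at 63.6 CPM in yak members and 191 CPM in BMX-negative cells, and at 43.8 and 144 CPM in the cattle-yak. Of the 36 endothelial receptors and ligands listed, 19 were measured in both, with *EFNB2* higher and *ROBO4* and *TGFBR3* lower in both, beside 2.75% and 1.8% of all genes measured in both. *CDH13*, a cadherin without a transmembrane part, which no list held, stood at 291 against 154 CPM in the yak and at 145 against 26.3 CPM in the cattle-yak, log2 ratios of 0.91 and 2.42, and was chosen after its values were seen.

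Interferon-induced *IFIT1* and *ISG15* were higher in BMX-positive cells of both libraries, with log2 ratios of 1.62 and 1.59 and of 1.21 and 1.04, 2 of 11 genes of antigen presentation and interferon measured in both. In the cattle-yak both lay within 2-fold with at least 2 *BMX* UMIs, at 0.94 for *IFIT1* and 0.50 for *ISG15*, and *ISG15* also under 5 other settings, between 0.84 and 0.97. Of the hypoxia genes, 0 of 7 measured in both passed 2-fold, and *EPAS1*, the hypoxia factor best known in endothelium, lay at 0.66 and 0.48. Of 15 immediate early and heat shock genes, which dissociation with enzymes is known to raise, 0 were higher in both and 1 lower, the chaperone *HSPH1*, at -1.12 and -1.06. The summed cell cycle list had ratios of -0.36 (-0.49 to -0.24) and -1.19 (-1.36 to -1.02), and of -0.05 and -0.46 with at least 5 UMIs of the 6 genes.

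A further list took some of the marker genes that the study gave for its spermatogonial stem cell type. It was short and does not stand for all of those markers. It held 19 genes, of which 16 were left without those of the rule and 13 were measured in both libraries. *FBLN2*, *FN1*, *JAG2*, *LIMA1* and *PTGS2* were higher in both. In the yak 6 of 13 measured genes were higher and 0 lower, and in the cattle-yak 5 of 13 were higher and 2 lower. The summed ratio was 1.09 (1.05 to 1.13) and 1.03 (0.98 to 1.07). The study chose its markers on the yak library, so the yak values are not independent evidence. In both libraries the members were picked by 3 genes of the same list. *LIMA1*, an actin-binding protein, stood at 496 against 129 CPM and at 615 against 165 CPM. *SOX9* and *ID4*, known in the testis for Sertoli cells and for spermatogonial stem cells, were higher in BMX-positive endothelial cells, with ratios of 1.81 and 2.08 and of 1.85 and 1.49. Other measured genes of the same lists were not, since the Sertoli cell gene *WT1* lay at -0.53 and -0.43 and the germ cell receptor *KIT* at -2.71 and -1.82. The size of the *SOX9* and *ID4* ratios depended on the setting. *SOX9* was 3.24 in the yak without cells above the mean plus 2 SD of depth, and 1.15 in the cattle-yak with cells reduced to 2000 UMIs. *ID4* was 2.96 and 2.84 without cells with muscle, macrophage or stromal genes. The summed lists of germ cells lay at 0.14 and -0.92, of Sertoli cells at 0.02 and -0.12, of stromal cells at -0.62 and -0.48, of epithelial cells at -0.64 and -1.14, of lymphatic endothelium at -1.62 and -1.18 and of Leydig cells at -3.11 and -2.10. Several of these depended on the cells kept. Without cells with muscle, macrophage or stromal genes, the stromal ratio was 1.29 and -0.16, that of germ cells -0.47 and 0.04 and that of Leydig cells -3.20 and -0.28. With at least 5 UMIs of the 6 genes, the stromal ratio was 0.40 and -0.20, that of germ cells 0.54 and 0.18 and that of lymphatic endothelium -0.83 and 0.073. The lymphatic ratio was further from 0 with cells reduced to 2000 UMIs, at -3.99 and -2.63, and with cells weighted equally, at -2.86 and -1.84. With at least 2 *BMX* UMIs the yak germ cell ratio was -0.76. Red blood cell and B cell genes had 1.11 CPM in yak members and no UMI in cattle-yak members.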
